A study of Mus musculus with 5 samples.

Results

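Genomic imprinting leaves some mammalian genes expressed from the copy inherited from 1 parent, and 10 such genes with roles in growth (Mest, H19, Igf2, Peg3, Dlk1, Meg3, Cdkn1c, Plagl1, Ndn and Grb10) were followed through 5 RNA-seq libraries labelled as mouse visceral fat. All 10 were found among the 78334 Ensembl genes of the count table, and 9 passed the low-count filter, with Igf2 left out for too few counts. The set was selected on measured values in part: Mest was chosen by its level in 1 library, diabetes 2, and the other genes by their class, to see whether they followed it. Levels of Mest are therefore given as a description with no test.

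The mice were male C57BL/6. The control group (1 library) was on standard chow with vehicle. The diabetes group (2 libraries) was injected on day 2 of life with 70 mg/kg of streptozotocin, which destroys pancreatic beta cells. It then had a high-fat diet (60% of energy from fat) for 8 weeks from 3 weeks of age, and vehicle. The curcumin-treated group (2 libraries) had the same injection and diet and then curcumin, a polyphenol of turmeric, by gavage at 50 mg/kg daily for 28 days from 11 weeks of age. For every library, the control included, tissue was collected 4 weeks after the start of treatment. No label says that each library is its own mouse, so p-values measure the spread between libraries, which may be technical.

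Imprinted genes often lie in clusters with a control region that is methylated on 1 parental chromosome. Textbook imprinting assigns Mest, Peg3, Igf2, Dlk1, Plagl1 and Ndn to the paternal copy and H19, Meg3, Cdkn1c and, outside the brain, Grb10 to the maternal one. Many are high in the fetus and fall after birth. In adult fat, Mest is known to rise when adipocytes enlarge, and Dlk1, or Pref-1, marks preadipocytes and is lost as they differentiate.

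The sequences before the start sites are shown for Mest, Plagl1 and Meg3, the members with a marked motif in a window, for Peg3, whose levels came nearest to those of Mest, and for Dlk1, which was nearly absent in diabetes 2. Each is the 250 bases upstream of a RefSeq start on GRCm38.p6, read 5′ to 3′ along the gene. Capitals mark TGCCGC on either strand (GCGGCA when read on the other), the hexamer bound by the imprint-maintaining zinc finger protein ZFP57 when it is methylated.
Mest, chr6:30737800-30738049, plus strand: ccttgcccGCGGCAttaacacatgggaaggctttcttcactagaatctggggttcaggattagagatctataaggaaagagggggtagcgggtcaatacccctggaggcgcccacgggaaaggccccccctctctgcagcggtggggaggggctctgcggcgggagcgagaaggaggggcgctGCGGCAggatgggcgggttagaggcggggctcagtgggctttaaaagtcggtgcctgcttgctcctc
Peg3, chr7:6730420-6730669, minus strand: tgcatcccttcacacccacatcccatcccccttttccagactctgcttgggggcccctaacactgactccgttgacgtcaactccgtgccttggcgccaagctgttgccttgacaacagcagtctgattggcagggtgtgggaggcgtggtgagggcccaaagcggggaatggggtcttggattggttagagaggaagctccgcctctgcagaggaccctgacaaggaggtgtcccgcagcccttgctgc
Plagl1, chr10:13090582-13090831, plus strand: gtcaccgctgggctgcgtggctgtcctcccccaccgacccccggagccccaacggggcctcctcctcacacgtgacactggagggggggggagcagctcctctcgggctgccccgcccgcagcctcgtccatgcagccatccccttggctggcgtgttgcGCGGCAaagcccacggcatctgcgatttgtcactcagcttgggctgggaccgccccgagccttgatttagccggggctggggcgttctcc
Meg3, chr12:109540746-109540995, plus strand: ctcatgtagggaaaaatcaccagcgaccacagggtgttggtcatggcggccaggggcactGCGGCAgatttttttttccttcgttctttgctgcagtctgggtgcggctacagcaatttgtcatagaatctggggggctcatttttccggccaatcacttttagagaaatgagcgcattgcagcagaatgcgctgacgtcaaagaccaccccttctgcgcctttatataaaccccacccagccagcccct
Dlk1, chr12:109452573-109452822, plus strand: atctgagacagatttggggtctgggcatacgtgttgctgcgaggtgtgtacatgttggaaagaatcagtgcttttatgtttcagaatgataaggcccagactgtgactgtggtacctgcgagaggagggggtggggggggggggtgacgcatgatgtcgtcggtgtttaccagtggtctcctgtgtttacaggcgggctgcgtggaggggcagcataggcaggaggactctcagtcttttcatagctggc

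Both near-identical downstream windows of Mest held 2 copies of the hexamer and 14 CpG dinucleotides, and the window of its upstream start held none and 7. Plagl1 and the first Meg3 window held 1 copy each, with 19 and 10 CpG dinucleotides. The windows of Peg3 and Dlk1 held none, with 8 CpG dinucleotides in each, and those of Grb10, Ndn and Igf2, not shown, held none either. Of 15 windows from 8 members, 4 held the hexamer, but the near-identical Mest windows among them count the same copies more than once. Over 32851 windows of the same length, 8.68% held it and 0.874% held 2 or more copies. H19 and Cdkn1c had no window. The median window held 6 CpG dinucleotides. Letters in a window describe the reference only, and methylation was not measured.

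Total counts ran from 25378046 to 42422890 per library. Tissue markers differed between libraries of the same group. A list of 15 adipocyte genes took 5.04% of the counts of diabetes 2 and 0.588% of curcumin-treated 1, but 0.0797% of control 1, 0.0301% of curcumin-treated 2 and 0.0234% of diabetes 1, with 2 of the 15 at 0 in the last. A list of 12 genes of the epididymal epithelium took 7.35% to 11.7% of control 1, diabetes 1 and curcumin-treated 2, 0.601% of curcumin-treated 1 and 9 counts in all of diabetes 2. In curcumin-treated 1, Crisp1 alone held 165926 of these counts, and the other 11 genes took 0.00486%. Smooth muscle genes took 5.10% of curcumin-treated 1 and 0.123% to 0.280% of the others. Every group comparison that follows is thus between libraries of unlike marker content, and values without single libraries are given where they turn or move most.

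Mest, which encodes an α/β-hydrolase-fold protein of the endoplasmic reticulum, was counted at 4.14 counts per 1000000 counts of the library (CPM) in control 1, 5.30 and 718 CPM in diabetes 1 and 2, and 19.7 and 6.34 CPM in curcumin-treated 1 and 2. Diabetes 2 stood apart from all the others, and the diabetic libraries lay on both sides of the curcumin-treated ones. The ratio of diabetes 2 to the next library, curcumin-treated 1, was 36.4, and 113 when curcumin-treated 1 was left out. This ratio is the one Mest was chosen for.

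Peg3, a zinc finger protein, came nearest to this pattern. It was at 6.92 CPM in control 1, 6.64 and 242 CPM in diabetes 1 and 2, and 15.6 and 4.88 CPM in curcumin-treated 1 and 2. As for Mest, curcumin-treated 1 was the second highest library, here 15.5-fold below diabetes 2, and 0.660% of the 29855 genes tested had a larger ratio.

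Plagl1, a zinc finger transcription factor that limits proliferation, stood at 10.2 CPM in control 1, 11.4 and 50.9 CPM in diabetes 1 and 2, and 10.4 and 7.38 CPM in curcumin-treated 1 and 2. The 4 libraries other than diabetes 2 lay within a narrow band, and the ratio of diabetes 2 to the highest of them was 4.45.

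Grb10, an adaptor that restrains signalling by the insulin and insulin-like growth factor receptors, stood at 12.7 CPM in control 1, 5.30 and 47.9 CPM in diabetes 1 and 2, and 16.1 and 7.07 CPM in curcumin-treated 1 and 2. Its ratio was 2.97, and diabetes 1 was the lowest library. Meg3, a long non-coding RNA, stood at 21.8 CPM in control 1, 10.3 and 81.7 CPM in diabetes 1 and 2, and 29.0 and 42.7 CPM in curcumin-treated 1 and 2. Its ratio was 1.91. On either side of a 2-fold limit, Meg3 was thus the nearest tested member below it and Grb10 the nearest above it.

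Ndn, the growth-restraining protein necdin, and Cdkn1c, the cyclin-dependent kinase inhibitor p57, were flatter. Ndn was at 10.7 CPM in control 1, 10.8 and 29.1 CPM in diabetes 1 and 2, and 23.6 and 13.1 CPM in curcumin-treated 1 and 2. Cdkn1c was at 7.44 CPM in control 1, 6.40 and 14.1 CPM in diabetes 1 and 2, and 15.6 and 8.06 CPM in curcumin-treated 1 and 2. For both, diabetes 2 and curcumin-treated 1 were the highest libraries, and their ratios of diabetes 2 to the highest other were 1.23 and 0.904.

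Dlk1, a transmembrane protein of the Notch ligand family, went the other way. It had 39 counts (1.44 CPM) in control 1, 0 and 2 counts (0 and 0.0788 CPM) in diabetes 1 and 2, and 241 and 63 counts (8.66 and 1.49 CPM) in curcumin-treated 1 and 2. Both diabetic libraries lay below the other 3. By counting error alone, a count of 0 in diabetes 1 allows up to 0.118 CPM. Of genes with 30 to 50 counts in another library, scaled to a total of 25000000, 18.3% to 25.2% were at 0 in diabetes 1. Whether the limit holds in that library was not tested.

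H19, a long non-coding RNA, and its neighbour Igf2, the fetal growth factor, were close to the detection limit everywhere. H19 had 7 counts in control 1, 0 and 8 in diabetes 1 and 2, and 20 and 16 in curcumin-treated 1 and 2. Igf2 had 6 counts in control 1, 0 in both diabetic libraries, and 9 and 6 in curcumin-treated 1 and 2. Curcumin-treated 1 thus held the highest CPM of Dlk1, H19, Igf2 and Cdkn1c, and diabetes 2 that of the other 6 members. In curcumin-treated 1, 46369 genes had a count above 0, against 24874 to 35983 in the others. The part of this wider detection in its H19 and Igf2 counts was not tested. Zeros in low genes were common in the diabetic libraries: of 1784 genes with 30 to 50 counts in control 1, scaled to a total of 25000000, 18.3% and 17.5% were at 0 in diabetes 1 and 2, against 4.54% and 1.79% in curcumin-treated 1 and 2. The part of this in the zeros of Dlk1, H19 and Igf2 was not tested.

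**Figure D1:**
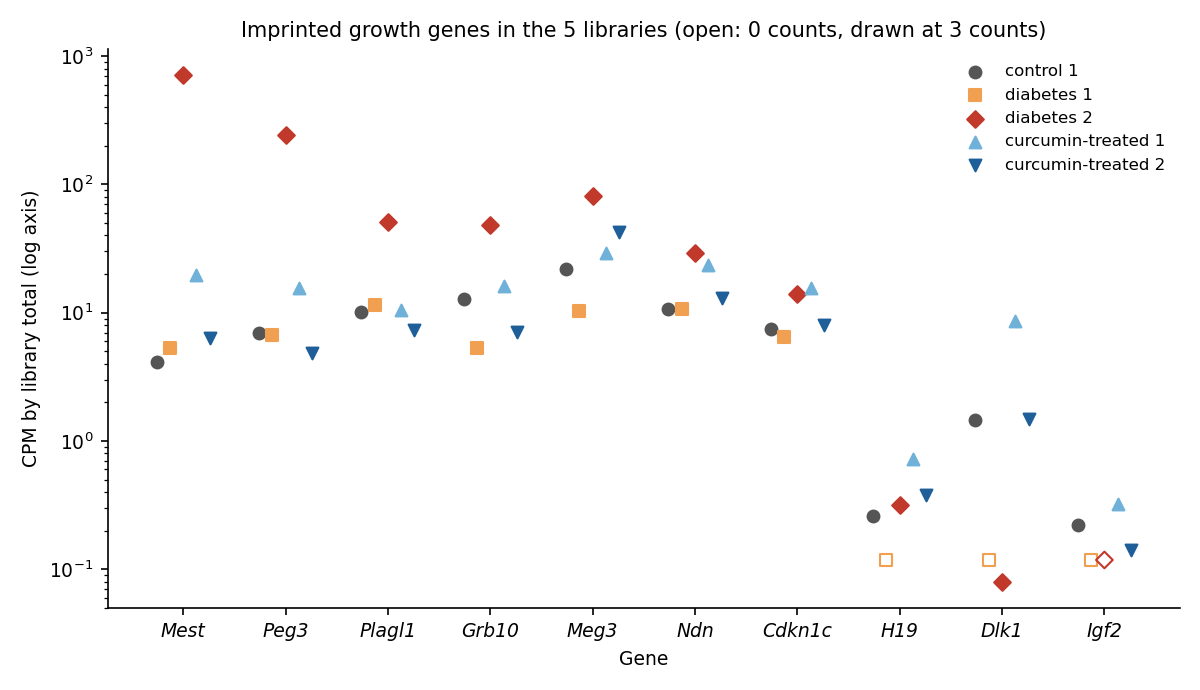
CPM by library total (log axis) of the 10 genes, with 1 point for each of the 5 libraries and open points, drawn at the level of 3 counts, for a count of 0. Diabetes 2 lies far above the other libraries for Mest (718 CPM) and Peg3 (242 CPM) and near or below them for Cdkn1c, H19, Dlk1 and Igf2.

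Per length of exon, the order of the genes differed between libraries. In diabetes 2, Mest led with 182 CPM per kilobase of exon, followed by Peg3 at 18.1, Ndn at 7.88, Cdkn1c at 6.90, Plagl1 at 6.51, Grb10 at 5.27 and Meg3 at 4.52. In control 1, Cdkn1c led at 3.65 and Ndn followed at 2.88, while Mest was at 1.05 and Peg3 at 0.519. These values use all annotated exons of each gene in GENCODE M21, so they understate genes whose long or rare exons are not used in fat.

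Of the 8 tested members other than Mest, 3 (Peg3, Plagl1 and Grb10) were over 2-fold higher in diabetes 2 than in every other library, or 37.5%, against 9.46% of all 29855 genes tested. Their median ratio was 1.57, against 0.371 over all genes. No tested member was over 2-fold below every other library, a pattern of 15.8% of all genes. Split by parental copy, a grouping made after the values were seen, 2 of 4 paternally expressed members tested other than Mest (Peg3 and Plagl1) and 1 of 4 maternally expressed ones (Grb10) were past the limit. At a fold of 1.5, Meg3 joined them, where 13.5% of all genes were past the limit. At a fold of 4, Peg3 and Plagl1 remained beside Mest, with 4.29% of all genes. Leaving out curcumin-treated 1, the library with the next most adipocyte counts, raised the share of all genes over 2-fold from 9.46% to 14.6% and the members, Mest included, from 4 to 5. With curcumin-treated 2 left out instead, the members were also 5, and the share of all genes was 10.9%.

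**Figure D2:**
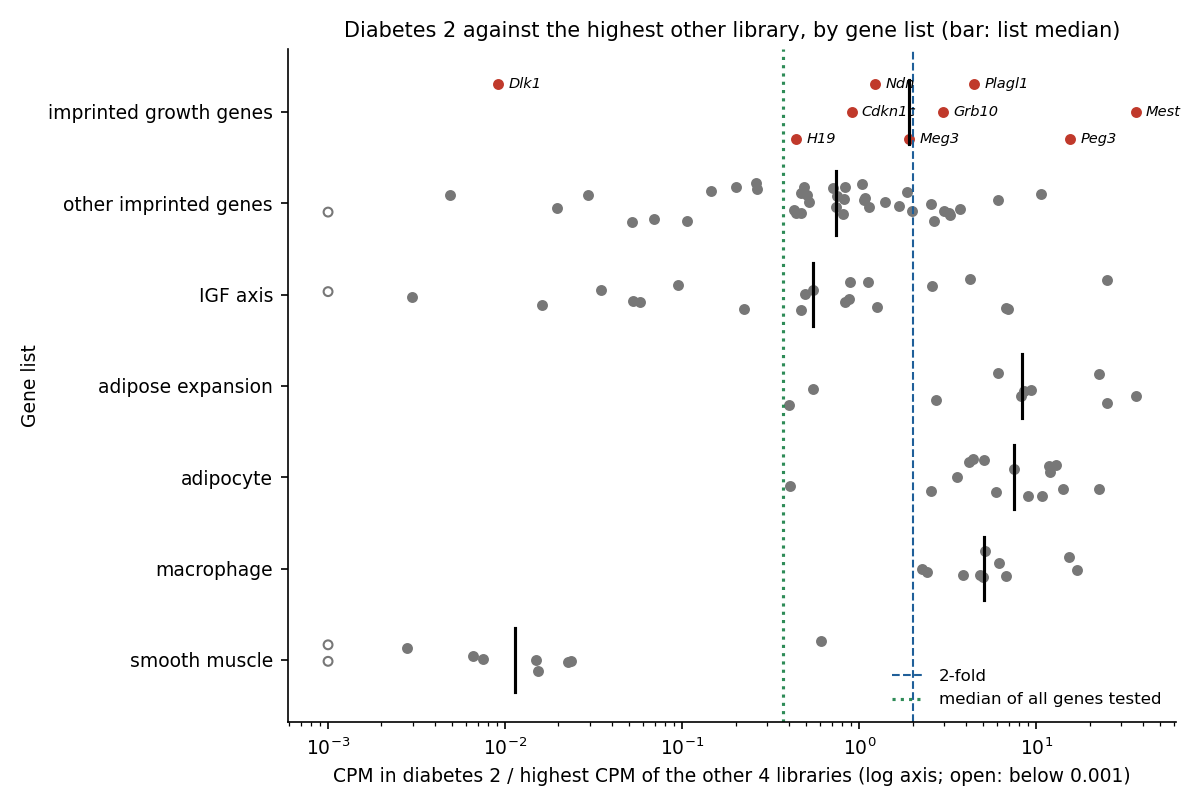
Ratio of CPM in diabetes 2 to the highest CPM of the other 4 libraries (log axis) for tested genes of 7 lists, with a black bar at each list's median, a dashed line at 2-fold and a dotted line at the median of all genes tested (0.371). The growth genes spread from Dlk1 at 0.0091 to Mest at 36.4, the adipocyte and macrophage lists lie mostly or wholly right of the 2-fold line, and the smooth muscle list lies left of it.

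The adipocyte markers moved with Mest. Of 15 adipocyte genes, 14 were over 2-fold higher in diabetes 2 than elsewhere, with a median ratio of 7.42, and all 10 macrophage genes were, with a median of 5.05. The adipose progenitor list was past the limit for 5 of 10 (median 1.62) and the endothelial list for 3 of 8 (median 1.72). Set against the adipocyte list, Mest was not highest in diabetes 2: it had 14.2 counts per 1000 adipocyte-list counts there, 22.6 in diabetes 1, 21.1 in curcumin-treated 2, 5.20 in control 1 and 3.36 in curcumin-treated 1. Peg3 had 4.79 per 1000 in diabetes 2, between 2.65 in curcumin-treated 1 and 28.4 in diabetes 1. Between the 2 libraries with the most adipocyte counts, Mest per adipocyte count was thus higher in diabetes 2 and Plagl1 (1.01 against 1.77), Grb10 (0.949 against 2.74) and Meg3 (1.62 against 4.93) were lower. The ratios of control 1, diabetes 1 and curcumin-treated 2 rest on 21537, 5961 and 12769 adipocyte-list counts, against 1280224 in diabetes 2. Set against the progenitor list, Mest stood at 420 per 1000 in diabetes 2 and at 6.73 to 25.9 in the others. In bulk tissue, fewer cells of a type cannot be told apart from less RNA per cell, and the part of tissue content in these levels was not tested.

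**Figure D3:**
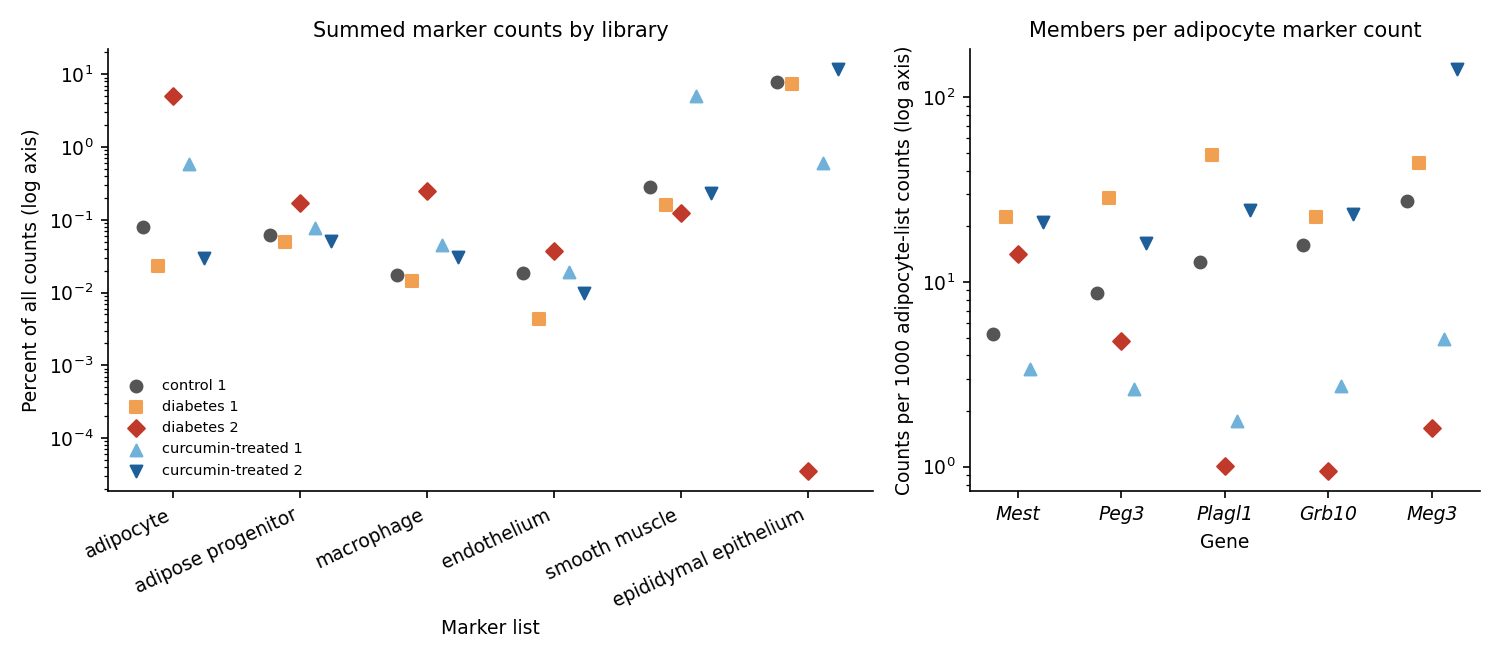
Left, percent of all counts (log axis) taken by 6 marker lists in each library. Right, counts of 5 members per 1000 counts of the adipocyte list (log axis). Diabetes 2 is highest on the left for adipocyte genes (5.04%) and lowest for epididymal ones, and on the right its Mest value (14.2) lies below diabetes 1 and curcumin-treated 2.

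A list of 10 genes tied to fat expansion showed the same library on top. Leaving out Mest, 7 of 9 were over 2-fold higher in diabetes 2 (median ratio 8.17), against 9.46% of all genes. Lep is also on the adipocyte list, where 14 of 15 were past the limit. Sfrp5, a secreted Wnt inhibitor, reached 582 CPM in diabetes 2, 71.3 CPM in curcumin-treated 1 and at most 2.19 CPM elsewhere. Npr3, the clearance receptor of natriuretic peptides, was at 1780 CPM in diabetes 2, 71.2 CPM in curcumin-treated 1 and at most 7.59 CPM elsewhere. Bmp3 (95.1 CPM in diabetes 2, 175 CPM in curcumin-treated 1) and Nkd1 (46.7 against 64.7 to 116 CPM) were not highest in diabetes 2.

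Members of the same cluster did not move as 1 block. Beside Mest on chromosome 6, Klf14, a transcription factor with metabolic roles in fat, was at 17.5 CPM in diabetes 2 and at most 1.65 CPM elsewhere (ratio 10.6). Copg2, a coat protein gene that runs into the end of Mest from the other strand, was at 201 CPM against at most 76.3 CPM (2.64). The strand setting of the counting is not given in the sources used here, so reads of Mest and Copg2 cannot be told apart where the genes overlap.

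In the cluster of Peg3, Zim1 followed with 7.64 CPM in diabetes 2 and at most 1.26 CPM elsewhere. Usp29 was highest there too, but by less than 2-fold (0.749 against 0.539 CPM) and on only 19 against 15 counts. In the cluster of Dlk1 and Meg3 on chromosome 12, the maternally expressed non-coding Rian was at 17.0 CPM in diabetes 2 and at most 5.25 CPM elsewhere. Mirg was highest there by less than 2-fold, at 1.10 CPM (28 counts) against 0.660 CPM. The paternally expressed Dlk1 and Dio3, a deiodinase, were not highest there: Dio3 had 14 counts in diabetes 2, 0 in diabetes 1 and 53 to 107 counts in the other libraries. Rtl1 had at most 10 counts and was not tested.

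Around Ndn, Magel2 had at most 6 counts, Mkrn3 was at 0.668 to 2.55 CPM, and Snrpn was nearly flat at 20.1 to 33.4 CPM. In the cluster of Cdkn1c, Phlda2, a placental growth restrainer, had 2 counts in diabetes 2 and 7 in curcumin-treated 1, against 244 in control 1, 344 in diabetes 1 and 687 in curcumin-treated 2, the libraries rich in epididymal genes. Kcnq1ot1, the antisense RNA of that cluster, was at 6.34 CPM in diabetes 2 and at 8.13 to 24.2 CPM in the others.

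Across 42 imprinted genes outside the set, 40 were tested. Of these, 8 were over 2-fold higher in diabetes 2 than in any other library (20.0%, beside 9.46% of all genes) and 5 over 2-fold lower (15.8% of all genes). Neuronatin (Nnat), a membrane protein found in adipocytes and neurons, was at 535 CPM in diabetes 2, 145 CPM in curcumin-treated 1 and 4.20 to 17.7 CPM elsewhere. The matrix proteoglycan decorin (Dcn) was at 1150 CPM in diabetes 2, 385 CPM in curcumin-treated 1 and 86.8 to 116 CPM elsewhere. Peg10, a retrotransposon-derived gene, was at 21.6, 8.48 and at most 0.888 CPM in the same order. On the lower side, Rasgrf1, a Ras exchange factor, was at 2.13 CPM in diabetes 2, 4.93 CPM in curcumin-treated 1 and 85.6 to 108 CPM in the other 3 libraries. Slc38a4, an amino acid transporter, was at 0.827 CPM against 4.55 to 28.1 CPM. The potassium channel subunit Kcnq1 was at 2.60 CPM in diabetes 2, 1.44 CPM in curcumin-treated 1 and 12.3 to 49.9 CPM elsewhere. The trafficking factor Trappc9 was lowest in diabetes 2, at 69.4 CPM against 76.8 to 158 CPM. The peptidase H13 (179 CPM) and Airn (5.95 CPM), the antisense RNA of Igf2r, were below the highest library by 2.34-fold and 2.14-fold, but not below every library. Kcnq1 and Kcnq1ot1, and Igf2r and Airn, overlap on opposite strands, as Mest and Copg2 do.

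The insulin-like growth factor axis was split as well. With Igf2 near 0, the ligand counted was Igf1, at 271 CPM in diabetes 2 and 18.5 to 40.3 CPM elsewhere. Its carrier subunit Igfals was at 146 CPM in diabetes 2, 5.82 CPM in curcumin-treated 1 and at most 1 count elsewhere. The receptor Igf1r ran against them, at 15.5 CPM in diabetes 2, 49.4 CPM in curcumin-treated 1 and 231 to 295 CPM in the 3 epididymis-rich libraries. The clearance receptor Igf2r, itself imprinted, was high in both diabetes 2 (149 CPM) and curcumin-treated 1 (180 CPM) and at 27.4 to 37.8 CPM elsewhere.

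Of the binding proteins, Igfbp4 (514 CPM, at most 122 CPM elsewhere) and Igfbp5 (368 CPM, at most 52.9 CPM elsewhere) were highest in diabetes 2, and Igfbp2 was lowest there (0.827 CPM, against 11.6 to 51.5 CPM). Igfbp3 (30.4 CPM, 65.0 CPM in the highest library) and Igfbp7 (310 CPM, 625 CPM in the highest) lay between the others. The RNA-binding Igf2bp2 was at 20.9 CPM in diabetes 2 and at most 8.18 CPM elsewhere. The binding protein proteases Pappa2 (1 count, 369 in curcumin-treated 1) and Pappa (0.985 CPM, 10.4 CPM in curcumin-treated 1) and their inhibitor Stc1 (2.17 CPM, 7.76 to 62.4 CPM elsewhere) were low in diabetes 2, Pappa not lowest there. In all, 5 of 21 tested genes of the axis were over 2-fold higher in diabetes 2 (23.8%, beside 9.46% of all genes). Another 4 were over 2-fold lower, a pattern of 15.8% of all genes.

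The genes with profiles most like Mest were found by the distance between log2 CPM profiles centred over the 5 libraries. The nearest were Gm10851 (distance 0.760), Gbp11 (0.919), 5430430B14Rik (0.967), Adam8 (0.990), Htr2b (0.991), S100a4 (1.01), P2ry10b (1.01) and Rgs1 (1.07), against a median distance of 6.74. Of these, Gbp11, 5430430B14Rik, Htr2b, S100a4 and P2ry10b were at 0 CPM in control 1 and diabetes 1. In diabetes 2 they reached 5.28 to 10.4 CPM, and their distances depend on the prior count of 2. Adam8, a membrane metalloprotease of leukocytes, reached 207 CPM in diabetes 2, 12.1 CPM in curcumin-treated 1 and at most 1.81 CPM elsewhere. Rgs1, a regulator of G protein signalling in leukocytes, was at 53.1 and 3.74 CPM, and at most 1.01 CPM elsewhere. Among the members Peg3 was the closest (1.75, with 0.301% of genes closer), then Grb10 (4.09, 6.52%) and Plagl1 (4.17, 6.99%), and Dlk1 the farthest (9.50, 91.3%).

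The first group comparison set curcumin treatment against untreated diabetes. Dlk1 had the largest difference among the tested members, with 304 counts over both treated libraries and 2 over both diabetic ones, a ratio of CPM of 110 (exact 95% interval 30.2 to 912, counting error only). Its fitted log2 fold change was 6.76 (SE 2.08), with an adjusted p of 0.852 in edgeR's quasi-likelihood test. DESeq2 gave an adjusted p of 0.0498, just past the threshold of 0.05, and under the other alternatives it did not pass, up to an adjusted p of 1. Smooth muscle genes, 5.10% of curcumin-treated 1, were also highest where Dlk1 was, and their part in it was not tested. Without that library its fold change was 5.16, from 63 counts against 2, and without diabetes 2 it was 10.24, from 304 counts against 0.

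Peg3 averaged 10.2 ± 7.56 CPM with curcumin and 124 ± 166 CPM in diabetes (SD, n = 2 each), with a fitted log2 fold change of −3.76 (SE 1.67). Without diabetes 2 it was 0.66, and with all 5 libraries it was −2.20 in limma-voom and −2.22 with replicate numbers as a block. Plagl1 averaged 8.90 ± 2.16 against 31.2 ± 27.9 CPM (SD, n = 2 each) and was the one tested member lower in both treated libraries than in both diabetic ones, a pattern of 9.72% of all genes. Its log2 fold change was −1.90 (SE 0.87) and −0.28 without diabetes 2. Grb10 had −1.33 (SE 1.12) and turned to 1.18 without diabetes 2, Meg3 −0.42 (SE 1.02) and 1.91, and Ndn −0.20 (SE 0.72) and 0.83. Ndn was also at 0.07 without curcumin-treated 2.

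Cdkn1c differed by 0.13 (SE 0.74) and was −0.39 without diabetes 1, 0.94 without diabetes 2 and −0.29 without curcumin-treated 1. H19 and Dlk1 were higher in both treated libraries, a pattern of 17.9% of all genes. For H19 this is a description only. It passed the low-count filter only through its treated libraries and dropped out without curcumin-treated 1, so its direction was partly set by the filter. H19 had 36 counts against 8, a CPM ratio of 3.26 (exact 95% interval 1.49 to 8.11), and a fitted log2 fold change of 1.66 (SE 1.96), which was 0.65 without diabetes 1 and 7.09 without diabetes 2. Igf2 had 15 counts against 0. Mest, described only, had a fitted log2 fold change of −4.95 (SE 2.13) that was 1.33 without diabetes 2.

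Diabetes against the single control shares the diabetic libraries with the first comparison, and diabetes 2 again set most values. Peg3 had a log2 fold change of 4.41 (SE 2.33), Plagl1 of 1.83 (SE 1.13), Meg3 of 1.30 (SE 1.33), Grb10 of 1.30 (SE 1.43), Ndn of 1.10 (SE 0.92) and Cdkn1c of 0.65 (SE 0.93). Without diabetes 2 these were −0.02, 0.21, −1.04, −1.22, 0.06 and −0.17. Dlk1 had 2 counts over both diabetic libraries against 39 in the control, with a CPM ratio of control to diabetes of 36.7 (exact 95% interval 9.49 to 314) and a fitted −4.88 (SE 2.14), or −3.89 without diabetes 1 and −8.38 without diabetes 2. It was the one tested member below the control in both diabetic libraries, a pattern of 34.5% of all genes. Plagl1 and Ndn were above the control in both, a pattern of 17.3% of all genes. Mest was above it in both too, but was chosen by its level in diabetes 2. The gap was small in diabetes 1: 5.30 against 4.14 CPM for Mest, 11.4 against 10.2 CPM for Plagl1 and 10.8 against 10.7 CPM for Ndn. H19 differed by −0.49 (SE 2.40), or 0.51 without diabetes 1 and −5.92 without diabetes 2. Igf2 had 0 counts against 6. Mest had a fitted 6.69 (SE 3.19), and 0.40 without diabetes 2.

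Curcumin treatment against the control shares libraries with both comparisons above. Fitted log2 fold changes were 1.88 (SE 2.01) for Dlk1, 1.17 (SE 2.40) for H19, 0.90 (SE 0.91) for Ndn, 0.88 (SE 1.30) for Meg3, 0.78 (SE 0.93) for Cdkn1c, 0.65 (SE 1.89) for Peg3, −0.03 (SE 1.35) for Grb10 and −0.07 (SE 1.03) for Plagl1. Mest was at 1.74 (SE 2.41). Both treated libraries lay above the control for H19, Dlk1, Meg3, Cdkn1c and Ndn, and for Mest, chosen by its level in diabetes 2. These were 6 of 9 tested members, beside 24.6% of all genes, and 0 lay below it, beside 34.0%. That count is a description only. It includes Mest, and H19, which passed the filter only through its treated libraries. Every member was also set against the same control library. In curcumin-treated 2, Dlk1 (1.49 against 1.44 CPM), Cdkn1c (8.06 against 7.44 CPM) and Ndn (13.1 against 10.7 CPM) were little above the control. Meg3 was at 42.7 against 21.8 CPM, Mest at 6.34 against 4.14 CPM and H19 at 0.377 against 0.259 CPM. Without curcumin-treated 1, the fold change of Dlk1 was 0.28 and that of Peg3 −0.27. Without curcumin-treated 2, that of Grb10 was 0.36 and that of Plagl1 0.05.

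In edgeR's quasi-likelihood test no member passed the threshold in any of the 3 comparisons, and 0 of 29855 genes (0%) were called in each, with 700, 441 and 113 genes at an unadjusted p under 0.05 in the order given. The adjusted p of the 8 members tested was 0.852 to 0.985 in the first comparison and 1 in the others. Over the alternatives it ran from 0.528 to 1 in the first for the members other than Dlk1, which ran from 0.0498 (DESeq2) to 1, and from 0.498 to 1 in the second and 0.975 to 1 in the third for all 8. limma-voom also called 0 genes in each, and DESeq2 called 95, 58 and 77. A p that misses the threshold does not show that levels were equal: the SE of the 8 members in the first comparison ran from 0.72 to 2.08 on the log2 scale.

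**Figure D4:**
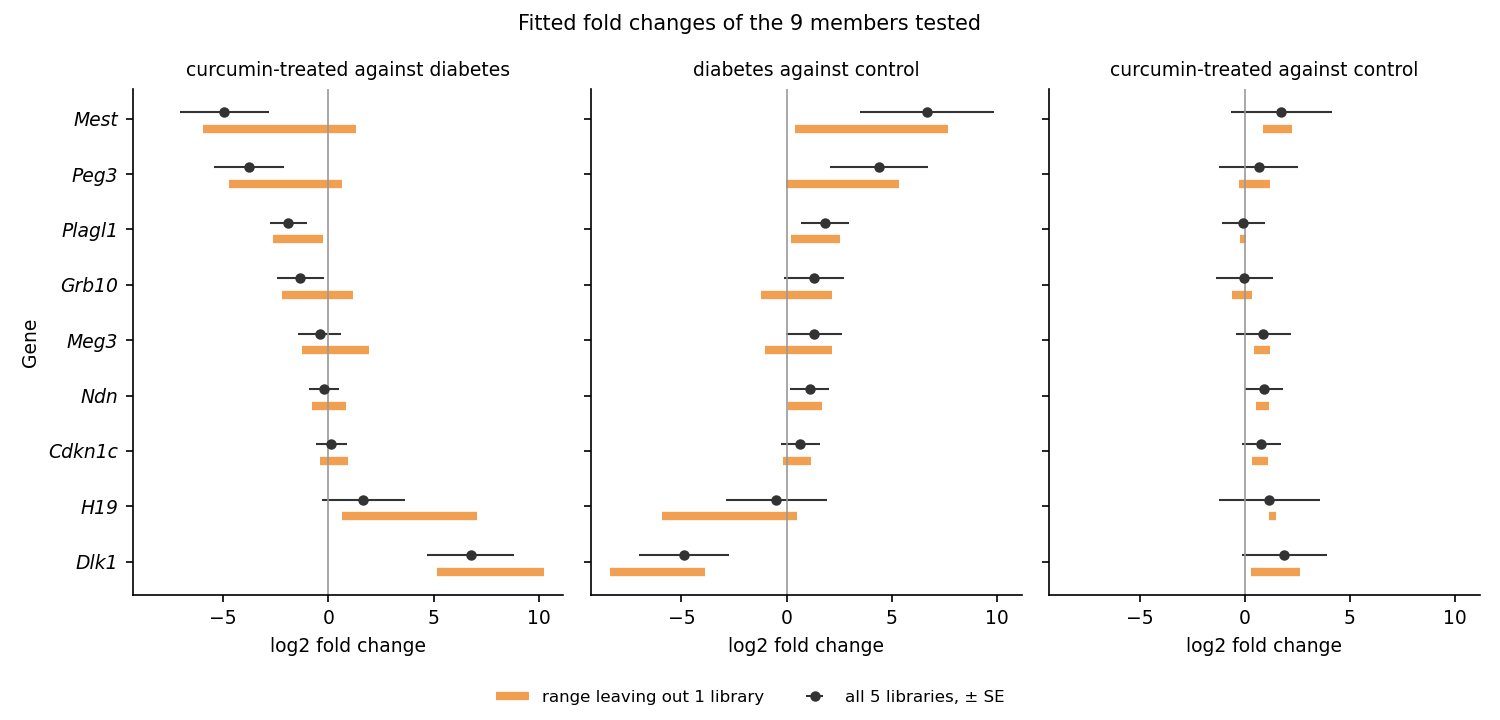
Fitted log2 fold changes of the 9 tested members in the 3 comparisons, with points and ± SE bars for the fit of all 5 libraries and thick bars for the range when 1 replicated library is left out. In the 2 comparisons with the untreated diabetes group the thick bars of Peg3, Grb10, Meg3 and Cdkn1c cross 0. Those of Dlk1 and Plagl1 cross it in neither, with Plagl1 coming as near as −0.28 and 0.21.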

How the data were processed

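Poly-A RNA from tissue labelled visceral fat was sequenced in 5 libraries with a strand-marking kit and paired reads, per the labels' protocols. The deposited values are raw counts per Ensembl gene, for which the submitters' processing notes name featureCounts and GRCm39. Aligner, annotation release and strand setting were not given in the sources used here. Symbols matched 51486 of 78334 genes (65.7%) by gene ID.

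CPM uses library totals. Genes passing edgeR's filterByExpr (29855) were scaled by TMM. One fit of 3 groups used the quasi-likelihood test of edgeR 4.0.16 (R 4.3.3, robust, two-sided, Benjamini-Hochberg over all genes, threshold 0.05, 2 residual degrees of freedom). The lone control takes its spread from the other groups. SE is the absolute log2 fold change divided by the root of F, and fitted folds use a prior count of 0.125, so those of genes with 3 or fewer counts in a group depend on it. Profiles used log2 CPM with a prior count of 2. Limits for a count of 0 are 3 counts. Intervals cover counting error only, since reads have no molecular identifiers. On simulated data, recovery of changed genes was required only at a spread far below that of these data (biological coefficient of variation 1.07). That run thus does not show what the fit can detect here. Start-site windows and gene order came from RefSeq GRCm38.p6 and exon lengths from GENCODE M21; no other coordinates were used.

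The members, lists and tests were chosen with earlier results of these data known. Named were all members, cluster neighbours, imprinted and growth factor axis genes over 2-fold above or below in diabetes 2 with a highest CPM of at least 10, and the 8 profiles nearest Mest. Alternatives were other scalings, filters and thresholds, DESeq2 1.42.0, limma-voom (limma 3.58.1), a replicate block and leaving out each replicated library. Zrsr1, in the list of other imprinted genes, was not matched.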

Additional observations from a re-analysis of the deposited data

How the results depend on the processing

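The counts of genes called were 0 under every alternative except DESeq2, with 95 for curcumin against diabetes, 58 for diabetes against control and 77 for curcumin against control. The replicate block also called 0 in each. Replicate numbers are not stated to mark pairs, and same-numbered deviations of the 2 diabetic groups correlated at −0.410 across genes; a crossed pairing, chosen after seeing the data, called 0. The Mest ratio was 42.2 with TMM-scaled totals and 44.4 with DESeq2's size factors, and 36.4 to 113 when single libraries were left out.

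Fold changes of Meg3 turned in sign to 0.34 with limma-voom and 0.25 with the replicate block (curcumin against diabetes), to −0.31 with the block (diabetes against control) and to −0.04 with it (curcumin against control). With all 5 libraries kept, limma-voom and the block gave −0.56 and −0.61 for Grb10 (curcumin against diabetes), and 2.61 and 2.54 for Peg3 and 0.41 and 0.25 for Grb10 (diabetes against control). Grb10 turned to 0.02 with no filter (curcumin against control). The cause was not tested. Leaving out single libraries, the values for curcumin against diabetes ran from −4.72 to 0.66 for Peg3, −1.27 to 1.91 for Meg3, −2.19 to 1.18 for Grb10, −0.80 to 0.83 for Ndn and −0.39 to 0.94 for Cdkn1c. For diabetes against control they ran from −0.02 to 5.36 for Peg3, −1.04 to 2.14 for Meg3, −1.22 to 2.15 for Grb10, −0.17 to 1.16 for Cdkn1c and −5.92 to 0.51 for H19. For curcumin against control they ran from −0.27 to 1.18 for Peg3, −0.61 to 0.36 for Grb10 and −0.23 to 0.05 for Plagl1. H19 and Igf2 had at most 20 and 9 counts in a library, which limits what their values can show.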

Other observations

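Several imprinted genes, picked after their values were seen, were high in both libraries with the fewest epididymal counts and not in diabetes 2 alone. Slc22a3, a transporter of organic cations, reached 67.1 CPM in diabetes 2, 35.9 CPM in curcumin-treated 1 and 0.747 to 1.18 CPM in the other 3 libraries. Osbpl5, an oxysterol-binding protein, was at 39.9 and 38.5 CPM against 4.43 to 7.10 CPM. Sgce, a sarcoglycan, was at 70.5 and 66.3 CPM against 5.85 to 13.2 CPM.

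Ascl2, a transcription factor of the cluster of Cdkn1c, stood the opposite way, at 0.355 and 0.503 CPM against 3.73 to 5.14 CPM. The part of tissue content in these levels was not tested. Gnas, the stimulatory G protein subunit, was at 751 CPM in diabetes 2 and 1280 to 1480 CPM in the others.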
